A study of Homo sapiens with 2 samples.

Results

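The genes of the major histocompatibility complex (MHC) class II pathway and their master regulator CIITA were examined in Ca9-22 cells, an oral squamous cell carcinoma (OSCC) line, with and without ectopic expression of the long noncoding RNA DLEU1. They were taken as the probes, control spots left out, whose gene name in the array files was CIITA, CD74, HLA-DMA, HLA-DMB, HLA-DRA, HLA-DRB1, HLA-DPA1, HLA-DPB1, HLA-DQA1 or HLA-DQB1. These 10 genes had 22 probes, of 43317 gene names and 58201 probes on the array. No measured value entered this choice, although it was made with earlier results of these data known.

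The DLEU1 vector group was Ca9-22 infected with a lentiviral vector that carries full-length DLEU1, and the control vector group was the same line infected with an empty vector. Both were selected with blasticidin for 2 weeks, so infection and selection were common to both groups. No time in culture or cell density was given for the harvest. Each group was 1 selected pool of cells, and its total RNA, carrying the dye Cy3, was read on a single-colour Agilent array, giving 2 arrays in all. There was no replicate of either group, and therefore no test, p-value or SD between cultures was computed, and every difference below is between these 2 arrays. The 2 arrays lay on the same slide and in the same scan. The HLA alleles of the line were not given in the sources used here, and the probes were designed on reference transcripts.

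Class II molecules present peptides from the endosome to CD4+ T cells. Each is a pair of an α and a β chain (DR, DP or DQ) that assembles in the endoplasmic reticulum with the invariant chain CD74, which blocks the groove until HLA-DM exchanges its last fragment for a peptide. Professional antigen-presenting cells express the set constitutively, whereas epithelial cells and carcinoma cells mostly need interferon-γ, which acts through JAK kinases and IRF1 to switch on CIITA. CIITA does not bind DNA but sits on a complex of RFX, CREB and NF-Y factors at the X and Y boxes of class II promoters.

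The arrays were first read for DLEU1 itself (control cells and DLEU1 cells are those carrying the respective vector). The brightest of 3 DLEU1 probes, A_23_P151337, had a processed signal of 2178 in control cells and 14156 in DLEU1 cells, a log2 difference of 2.74, and the other 2, of transcript NR_109974, differed by 0.85 and 0.54. All log2 differences are DLEU1 vector minus control vector after the 75th percentile of each array had been subtracted, and are relative to the other probes. Over the 20246 genes detected on both arrays the median difference was -0.07 with an SD over genes of 0.90. A probe is called detected where the software marked it as well above background, and the faintest detected probe had a signal of 14.2 in control cells and 14.3 in DLEU1 cells. The 308 negative control spots had a median signal of 3.35 on both arrays and reached 8.07 and 7.09, respectively.

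By the well above background criterion, more class II genes were detected with the DLEU1 vector than with the control vector. Of the 10 genes, 6 were detected in control cells and 8 in DLEU1 cells, and the added genes were CIITA and HLA-DRA. The counts depend on the criterion, with 8 and 8 genes by the positive and significant flag, 5 and 5 when both signals had to reach 100, and 7 and 8 above the highest negative control spot. Of the 22 probes, 13 were detected on both arrays, 5 in DLEU1 cells only, 0 in control cells only and 4 on neither. Over the whole array, 47.6% of probes were detected in control cells and 48.1% in DLEU1 cells, with 2.9% in DLEU1 cells only and 2.49% in control cells only. Among all probes not detected with the control vector, 5.55% were detected with the DLEU1 vector, and among the 9 such class II probes 5 were. Apart from those of CIITA and HLA-DRA, these 5 were all probes of HLA-DPB1, which other probes already detected in control cells. Probes of the same gene are not separate members, and by gene only CIITA and HLA-DRA were added. In bulk RNA, more cells that express a gene and more RNA per cell cannot be told apart.

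**Figure D1:**
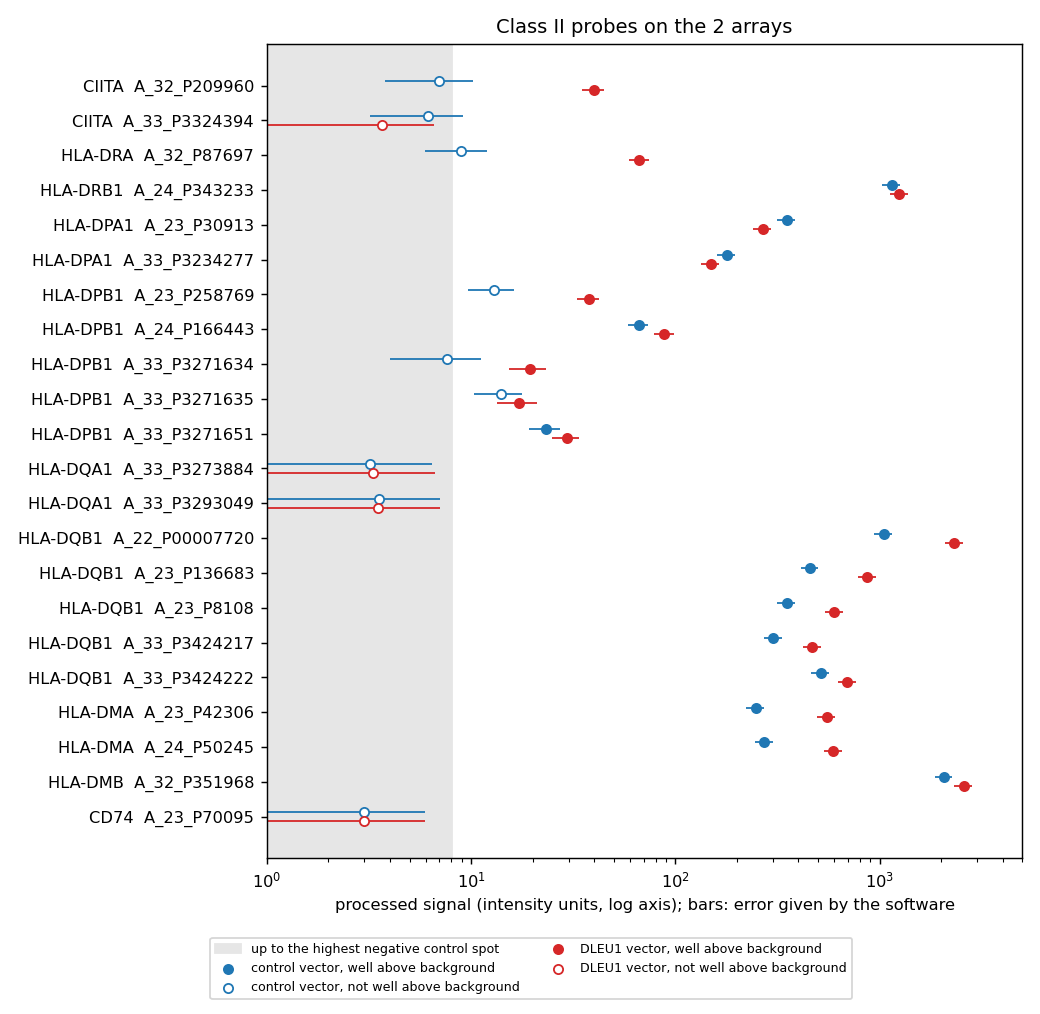
Processed signal of each of the 22 class II probes (rows, by gene) in control cells (blue) and DLEU1 cells (red), on a log axis in intensity units; filled points are well above background, open points are not, bars are the error given by the software for the spot (cut at the axis limit of 1), and the grey band ends at the highest negative control spot, 8.07. CIITA A_32_P209960 lies inside the band in control cells and HLA-DRA just past its edge, and they reach 39.8 and 66.7 in DLEU1 cells, while CD74 and HLA-DQA1 lie inside it on both arrays.

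CIITA, the transactivator on which class II transcription depends, was detected with the DLEU1 vector only. Its probe A_32_P209960, of transcript NM_000246 at chr16:11018667-11018726 (hg19, plus strand), had a signal of 6.99 in control cells and 39.8 in DLEU1 cells, with software errors of 3.21 and 5.06. The level with the DLEU1 vector was at least 2.88-fold higher, taking the faintest detected signal as the level of the control vector array. The control vector signal lay below the highest negative control spot, although the software still marked it as positive and significant, a weaker criterion. The other CIITA probe, A_33_P3324394 of transcript NM_001286403 at chr16:10996598-10996657, read 6.16 and 3.68 and was detected on neither array. Thus 1 of the 2 CIITA probes showed the difference, and 39.8 is a dim signal.

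HLA-DRA, the α chain of every DR molecule and the least variable class II chain, had the largest bound among the class II probes. Its only probe, A_32_P87697 at chr6:32412448-32412507 (hg19, plus strand), had a signal of 8.98 in control cells and 66.7 in DLEU1 cells, with errors of 3.04 and 7.27. The level was at least 4.82-fold higher with the DLEU1 vector. The control vector signal was above the highest negative control spot of that array but not well above background. Both bounds stayed above 0 on the log2 scale under every other setting that gave one, although some, such as the fold thresholds, cannot change a bound. They were lowest when the background was corrected by normexp with an offset of 50, at 0.54 for CIITA and 0.95 for HLA-DRA.

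HLA-DRB1, the β partner of HLA-DRA, was bright on both arrays and nearly alike. Its probe A_24_P343233 at chr6:32548524-32548583 (minus strand) read 1146 in control cells and 1250 in DLEU1 cells. The difference of 0.16 was smaller than the software error of the difference, 0.20, and its sign turned to -0.30 when the arrays were scaled on their spike-in probes. This probe is much like an HLA-DQB1 probe, A_33_P3424222, so both are shown here with the bases they share at the same positions in capitals. They come from the stretch that codes for the membrane-spanning part of the β chains.
HLA-DRB1 A_24_P343233: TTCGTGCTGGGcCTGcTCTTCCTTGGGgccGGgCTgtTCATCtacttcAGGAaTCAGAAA
HLA-DQB1 A_33_P3424222: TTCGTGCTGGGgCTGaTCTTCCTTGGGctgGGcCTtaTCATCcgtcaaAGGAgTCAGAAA
The 2 probes share 45 of 60 bases. How far each also captures the transcript of the other gene was not tested. Over all 22 class II probes, 2 shared an unbroken run of at least 16 bases with a probe of another gene name, and neither of this pair was among them.

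HLA-DPA1, the α chain of DP, was the only class II gene of those detected on both arrays that was lower with the DLEU1 vector. Its probe A_23_P30913 at chr6:33032848-33032907 (minus strand) read 351 and 267, a difference of -0.36 with a software error of 0.21. Its probe A_33_P3234277, upstream in the gene at chr6:33036886-33036945, read 179 and 149, a difference of -0.22. Neither difference passed 2 software errors. The second turned to 0.14 when each spot was centred on its 100 nearest neighbours.

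HLA-DPB1, the β chain of DP, was dim, and all 5 of its probes read higher with the DLEU1 vector. The brightest, A_24_P166443, whose bases span chr6:33052981-33053587 (hg19, plus strand) across a splice junction, read 66.2 and 88.5, a difference of 0.46. The next, A_33_P3271651 at chr6:33052784-33052843, read 23.3 and 29.4, a difference of 0.37 with a software error of 0.33. Scaled on the spike-in probes these became -0.0061 and -0.088, so the direction of these 2 probes depends on the scaling.

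The other 3 HLA-DPB1 probes were detected with the DLEU1 vector only. The probe nearest the 3′ end, A_23_P258769 at chr6:33054359-33054418, read 12.9 and 37.6, at least 2.72-fold higher. Its log2 bound was 0.98 when scaled on the spike-in probes and lowest, at 0.53, with normexp. A_33_P3271634, of transcript ENST00000466949, read 7.58 and 19.3, at least 1.40-fold higher, and A_33_P3271635 read 14.02 and 17.2, at least 1.24-fold higher. For A_33_P3271635 the log2 difference of 0.33 was smaller than its software error of 0.50. Its log2 bound turned to -0.15 when scaled on the spike-in probes, so its direction is not settled. The 5 probes of this gene thus read higher in DLEU1 cells, 2 with measured differences and 3 with lower bounds only, and signals under 100 were less precise than bright ones. For probes spotted several times on the array, the log2 difference between arrays varied among the spots of the same probe. The SD of this variation, pooled within probes, was 0.308 over 5 probes under a signal of 100 and 0.0692 over 277 brighter probes.

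HLA-DQA1, the α chain of DQ, was detected on neither array. Its probe A_33_P3293049 read 3.53 and 3.51 and its probe A_33_P3273884 read 3.22 and 3.31, all of them surrogate values that the software gives to spots at background. These values lay around the median of the negative control spots.

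HLA-DQB1, the β chain of DQ, was higher with the DLEU1 vector at all 5 of its probes. The brightest, A_22_P00007720 at chr6:32627683-32627742 (hg19, minus strand), read 1048 in control cells and 2313 in DLEU1 cells, a difference of 1.18 or 2.27-fold. A_23_P136683 at chr6:32627951-32628010 read 456 and 869, a difference of 0.97. A_33_P3424222, the probe printed above at chr6:32629125-32629184, read 514 and 694, a difference of 0.47. Each of these differences was over 2 software errors, but they ranged over more than the spot SD, so the size differs with the probe.

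The remaining HLA-DQB1 probes belong to transcript NM_001243962. A_23_P8108 read 351 and 601, a difference of 0.81, and A_33_P3424217, for which the files give no position, read 302 and 467, a difference of 0.67. The files place A_23_P8108 at chr6:32725597-32725656, which is 96413 bases from the nearest other HLA-DQB1 probe and 1079 bases from the probe of HLA-DQB2, so which of the genes it measures is uncertain. The direction held under every scaling for all 5 probes. With this local centring, however, A_33_P3424217 turned to -0.53 and A_33_P3424222 became 1.24.

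HLA-DMA, the α chain of the peptide exchange factor DM, was higher with the DLEU1 vector at both of its probes, and they gave nearly the same size. A_24_P50245 at chr6:32917418-32917477 (hg19, minus strand) read 272 and 591, a difference of 1.16 or 2.23-fold. A_23_P42306 at chr6:32916566-32916625 read 247 and 551, a difference of 1.19 or 2.29-fold. The sign was the same under all 16 other settings for each probe, although those that change only the detection filter could not alter it. The lowest values were 0.70 and 0.73, respectively, after scaling on the spike-in probes, where neither probe reached 2-fold.

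HLA-DMB, the β partner of HLA-DMA, differed less. Its probe A_32_P351968 at chr6:32902504-32902563 (minus strand) read 2065 and 2574, a difference of 0.36 with a software error of 0.20. The sign was not stable, with -0.11 after scaling on the spike-in probes and -0.15 after local centring.

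CD74, the invariant chain, was detected on neither array. Its only probe, A_23_P70095 at chr5:149792222-149792281 (hg19, minus strand), read 2.98 on both arrays, a surrogate value at background. The probe is shown because it lies near the 5′ end of the coding sequence, with the ATG at which the shorter form of the protein begins in capitals.
CD74 A_23_P70095: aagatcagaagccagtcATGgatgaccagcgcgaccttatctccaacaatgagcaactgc
No probe farther toward the 3′ end of CD74 carried this gene name, and the labelling kit primes at the poly(A) tail, so these arrays give no reading of the rest of the transcript.

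The median of the class II genes detected on both arrays lay above that of all genes. Of these 6 genes, each represented by its brightest probe detected on both arrays, 5 were higher with the DLEU1 vector and 1 was lower, where 45.8% of all genes were higher. The median difference was 0.41, with a range from -0.36 to 1.18. With the arrays scaled on their spike-in probes 2 of the 6 were higher and 4 lower with a median of -0.056, and the median of all genes was then -0.53. The gap between the class II median and that of all genes was 0.48, which a constant shift such as the spike-in scaling leaves as it is, and it was 0.30 with normexp, 0.40 with plain background subtraction, 0.37 with no filter and 0.86 with the positive and significant flag.

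At the 2-fold threshold, 2 of these 6 genes (HLA-DMA and HLA-DQB1) were higher by their brightest probes and 0 were lower, where 9.18% of all genes were higher and 9.78% lower. The other HLA-DQB1 probes differed by 0.47 to 0.97, short of 2-fold, so the call of this gene rests on its brightest probe. Scaled on the spike-in probes neither HLA-DMA nor HLA-DQB1 reached 2-fold, with 0.70 and 0.72, and with normexp HLA-DMA was at 0.98. By probe, 11 of the 13 detected on both arrays were higher, where 45.6% of all probes were, and 3 were at least 2-fold higher, where 8.98% were. Of the 5 probes detected with the DLEU1 vector only, 3 (CIITA, HLA-DRA and 1 of HLA-DPB1) had bounds of at least 2-fold, where 35.7% of all such probes did. Counted over the 9 class II probes not detected in control cells these are 3 of 9, where the share over all probes not detected there was 1.98%. Several of the 9 are probes of the same gene and are not separate members. Of the 13 differences, 8 were over 2 software errors, namely both of HLA-DMA, all 5 of HLA-DQB1 and 1 of HLA-DPB1. The share of all probes past this mark was not computed, so the count cannot be weighed. The software errors of the 13 ran from 0.204 to 0.331. Over all probes detected on both arrays, the quartiles of the difference were -0.52 and 0.40.

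**Figure D2:**
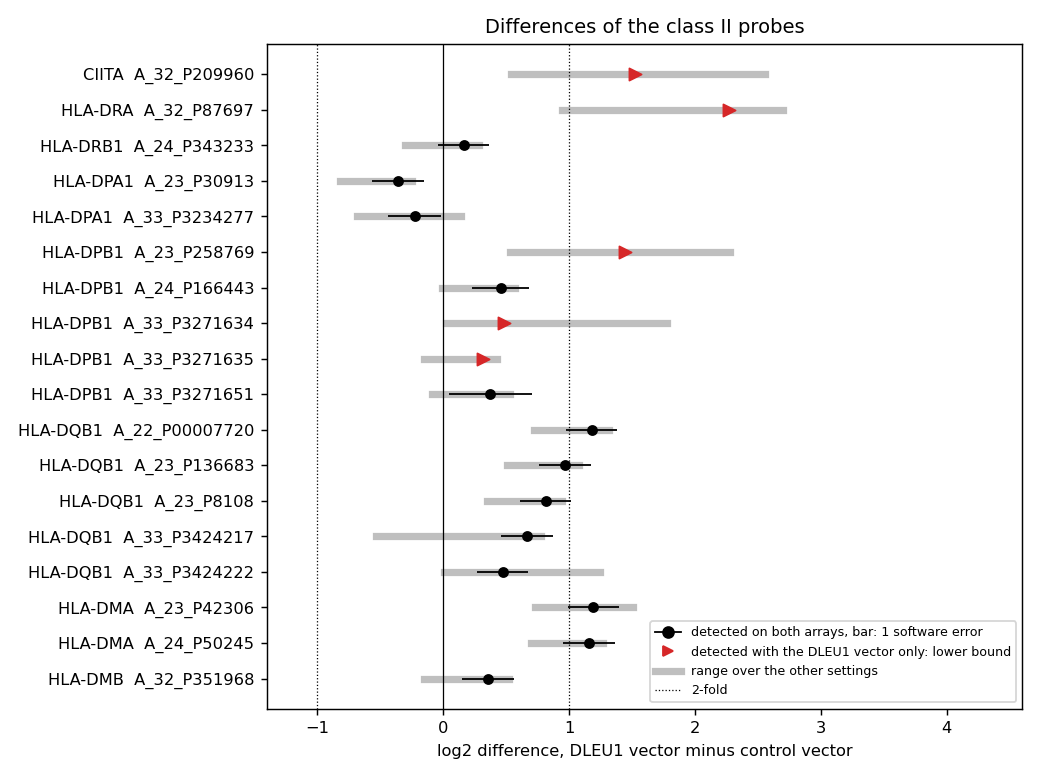
Log2 difference (DLEU1 vector minus control vector, horizontal axis) of the 18 class II probes detected on at least 1 array; black points were detected on both arrays with bars of 1 software error, red arrowheads are lower bounds for probes detected with the DLEU1 vector only, grey bars give the range over the other settings, and dotted lines mark 2-fold. The HLA-DMA probes and the brightest HLA-DQB1 probe sit past 2-fold at 1.16, 1.19 and 1.18, HLA-DPA1 sits below 0, and several grey bars cross 0.

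In a list of 7 further class II genes, most also read higher in DLEU1 cells, and none reached 2-fold. Of these 7 genes, 6 were detected on both arrays, of which 5 were higher, 1 was lower and 0 reached 2-fold, where 45.8% of all genes were higher and 9.18% at least 2-fold higher. The median was 0.50 (0.036 when scaled on the spike-in probes). HLA-DOB, the β chain of the DM inhibitor DO, read 307 and 434, a difference of 0.54, while its α chain HLA-DOA read 28.4 and 24.6, a difference of -0.17. The highest was HLA-DQB2 at 0.71. HLA-DRB3, HLA-DRB4 and HLA-DRB5, additional DR β chains that only some haplotypes carry, differed by 0.56, 0.46 and 0.08, and HLA-DQA2 was detected on neither array. Since the DRB genes are close copies, the signals of their probes may be shared among them.

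Several of the class II promoters hold the paired boxes at which CIITA acts. RefSeq promoters (GRCh38.p14, 250 bases before the start and 50 after it) were at hand for 8 of the 10 genes, with 9 promoters among them, and for CIITA and HLA-DRA none was used. The letters AGNNACNGA were searched on both strands as the core of the X box and CCAAT, which reads ATTGG on the other strand, as the Y box bound by NF-Y. Both sets of letters were chosen with these promoters in view. The stretches are printed 5′ to 3′ on the strand of the gene because they show the spacing, with matches in capitals, first those of the 4 genes in which ATTGG begins 30 to 38 bases after the start of the X box core.
HLA-DRB1 chr6:32589880-32589939 minus: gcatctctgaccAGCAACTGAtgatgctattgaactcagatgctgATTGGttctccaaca
HLA-DQA1 chr6:32637292-32637352 plus: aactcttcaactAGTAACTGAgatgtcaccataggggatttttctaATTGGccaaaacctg
HLA-DQB1 chr6:32666731-32666790 minus: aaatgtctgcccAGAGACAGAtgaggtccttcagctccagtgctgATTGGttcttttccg
HLA-DMA chr6:32953162-32953222 minus: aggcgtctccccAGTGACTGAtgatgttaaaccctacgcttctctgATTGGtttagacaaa
HLA-DMB chr6:32941063-32941128 minus: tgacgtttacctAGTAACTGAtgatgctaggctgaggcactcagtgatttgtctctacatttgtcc
HLA-DPA1 chr6:33073695-33073760 minus: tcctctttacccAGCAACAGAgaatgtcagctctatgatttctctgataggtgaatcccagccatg
HLA-DPB1 chr6:33075841-33075905 plus: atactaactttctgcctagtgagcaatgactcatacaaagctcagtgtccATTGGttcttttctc
CD74 chr5:150412949-150413013 minus: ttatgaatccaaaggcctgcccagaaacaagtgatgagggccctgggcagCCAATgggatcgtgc

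The X box core was found in 6 of the 9 promoters, where 15.3% of all 35116 promoters held it, and CCAAT in 7, where 34.6% did. Both in order, with ATTGG beginning 30 to 38 bases after the start of the X box core, were found in 4 of the 9 (HLA-DRB1, HLA-DQA1, HLA-DQB1 and HLA-DMA) and in 0.131% of all promoters. The distance was 33 bases in HLA-DRB1 and HLA-DQB1 and 34 in HLA-DQA1 and HLA-DMA. These are matches of letters and not measured binding. Because the letters were chosen with these promoters in view, the contrast with all promoters is no test. Variants of the letters were not searched, so a promoter without a match is not shown to lack the boxes.

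The genes with both boxes at this spacing had unlike differences. They included HLA-DMA and HLA-DQB1, which were at least 2-fold higher by their brightest probes, HLA-DRB1, which differed by 0.16, and HLA-DQA1, which was not detected. The shares of interferon letters were near those of all promoters. The gamma-activated site TTCNNNGAA was found in 1 of the 9 promoters (HLA-DQA1), where 7.66% of all promoters held it, and the interferon-stimulated response element, searched as GAAA and GAAA with 2 bases between them, in 0, where 3.57% did.

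**Figure D3:**
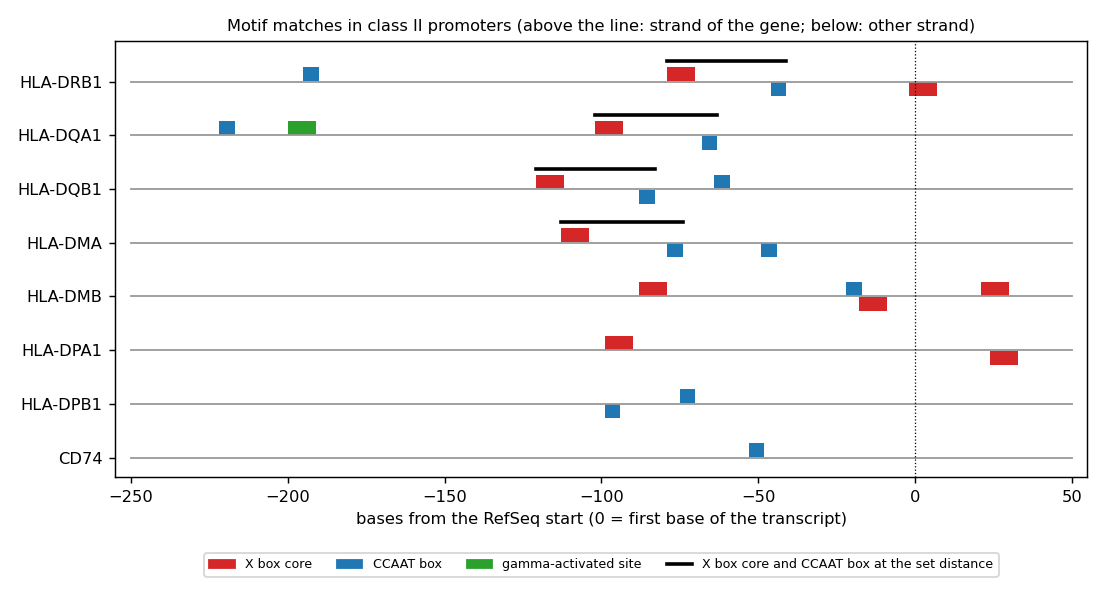
Matches of the X box core (red), the CCAAT box (blue) and the gamma-activated site (green) along the promoters of 8 class II genes, with bases from the RefSeq start on the horizontal axis; marks above a line are on the strand of the gene, marks below on the other strand, and a black bar joins an X box core to a CCAAT box 30 to 38 bases after it. The black bar appears in HLA-DRB1, HLA-DQA1, HLA-DQB1 and HLA-DMA and always before the start.

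The factors that bind these boxes were all detected and none reached 2-fold. Of the 7 promoter factors, 3 were higher and 4 lower, with a median of -0.17, where 45.8% of all genes were higher. The shares of all genes past 2-fold were 9.18% higher and 9.78% lower. RFX5, the DNA-binding subunit of RFX, read 2001 and 2136, a difference of 0.13, while its partners RFXAP and RFXANK differed by -0.41 and -0.35. Among the NF-Y subunits NFYA was the highest of the list at 0.75 and NFYB the lowest at -0.48.

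The route from interferon-γ to CIITA was mixed. Of its 9 genes, 8 were detected on both arrays, 4 higher and 4 lower, with a median of -0.11, where 45.8% of all genes were higher and 9.18% at least 2-fold higher. IFNG itself was detected on neither array. IRF1, which binds the interferon-responsive promoter of CIITA, read 375 and 743, a difference of 1.03, and was the only gene of the list at 2-fold or more. It was short of 2-fold with the arrays unscaled, scaled on the median or the spike-in probes, or corrected by normexp. SOCS1, a feedback inhibitor of JAK kinases, was the lowest and read 351 and 179, a difference of -0.93. The receptor chains IFNGR1 and IFNGR2 differed by 0.00 and -0.22.

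Other targets of interferon-γ were mixed as well. Of the 7 guanylate-binding proteins, GTPases of cell-autonomous immunity, 6 were detected on both arrays, with a median of 0.40. At least 2-fold higher were 2 of them and at least 2-fold lower 0, where the shares over all genes were 9.18% and 9.78%. GBP2 read 338 and 1608, a difference of 2.29, and GBP6 read 123 and 549, a difference of 2.19. GBP1 was the lowest at -0.33, and GBP7 was detected on neither array. The median of this list was -0.065 after scaling on the spike-in probes.

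Regulators known to act on CIITA split in direction, 3 higher and 4 lower of 7, with a median of -0.16, where 45.8% of all genes were higher. PRDM1, which represses CIITA when B cells become plasma cells, read 144 and 387, a difference of 1.47. EZH2, a histone methyltransferase that can silence CIITA in tumours, read 2235 and 771, and was 2.82-fold lower. The others lay within 2-fold, and whether either bears on CIITA in these cells was not tested.

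After transcription, class II also depends on proteases that cut antigen and the invariant chain. Of 8 endosomal genes, 7 were detected on both arrays, 3 higher and 4 lower, with a median of -0.08. At least 2-fold higher were 2 of them, where 45.8% of all genes were higher and 9.18% at least 2-fold higher. The aspartic protease CTSD read 1763 and 4424, a difference of 1.37, and the cysteine protease CTSB read 2193 and 4626, a difference of 1.11. IFI30, a thiol reductase induced by interferon-γ, was the lowest at -0.68, and CTSS, the main invariant chain protease of antigen-presenting cells, was detected on neither array. Of the ubiquitin ligases that remove class II from the surface, MARCH1 was detected with the DLEU1 vector only, with signals of 10.71 and 53.1, at least 3.84-fold higher, and MARCH8 differed by 0.39. With loess scaling, the medians of the interferon-γ route, the endosomal genes and the CIITA regulators turned to 0.02, 0.11 and 0.10, so none of these lists has a settled direction.

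Class I, which presents peptides from the cytosol and is found on nearly all cells, stayed within 2-fold throughout. All 15 genes of class I presentation were detected on both arrays, with a median of 0.23. Of these, 13 were higher and 2 lower, where 45.8% of all genes were higher. The number that reached 2-fold was 0, where the shares of all genes past 2-fold were 9.18% higher and 9.78% lower. The heavy chains HLA-B and HLA-C differed by 0.17 and 0.05 at their brightest probes, and the light chain B2M by 0.41. Over all their probes HLA-B ranged from 0.03 to 0.82 and HLA-C from 0.05 to 0.19. The ends of the list were the peptide trimmer ERAP1 at 0.84 and the peptide transporter TAP2 at -0.47. After scaling on the spike-in probes the class I median was -0.23, and with quantile normalization and loess it was 0.47 and 0.49, beside class II medians of 0.45 and 0.48.

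**Figure D4:**
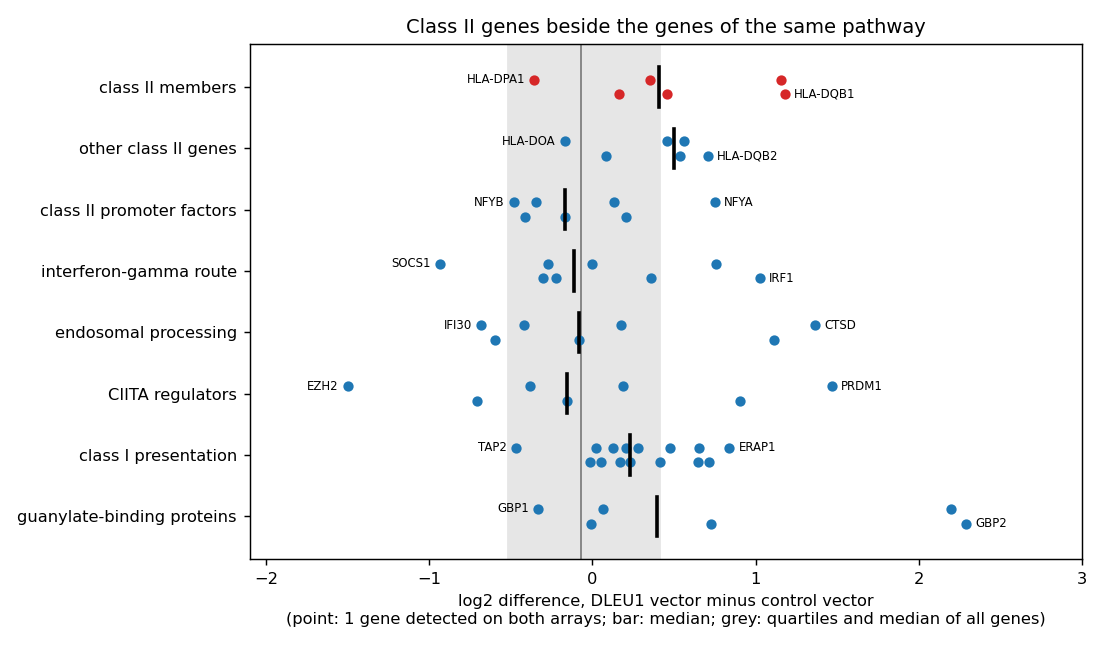
Log2 difference (DLEU1 vector minus control vector, horizontal axis) of the genes detected on both arrays, for the class II genes (red) and lists of related genes (blue); each point is 1 gene, black bars are list medians, and the grey band and line are the quartiles and the median of all 20246 genes. The medians of the class II genes (0.41), other class II genes (0.50) and guanylate-binding proteins (0.40) lie to the right of 0, and those of the promoter factors (-0.17) and the interferon-γ route (-0.11) to the left.

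The cells carried the markers of squamous epithelium. All 7 of these markers were detected on both arrays. With the DLEU1 vector 4 of them (KRT5, KRT14, KRT6A and CDH1) were 2-fold higher or more, where 9.18% of all genes were. TP63, SFN and EPCAM differed by 0.96, 0.00 and -0.78. The median differences of keratinocyte differentiation and proliferation markers were larger in size than that of the class II genes. Of 8 differentiation markers, 6 were detected on both arrays, with a median of 5.82. All 6 were higher, where 45.8% of all genes were, and KRT1 and LOR were detected with the DLEU1 vector only. The summed signal of the list was 22723 in control cells and 208800 in DLEU1 cells. All 5 proliferation markers were past 2-fold and lower in DLEU1 cells (median -2.86), where 9.78% of all genes were. The summed signals of these 5 markers were 39650 and 7244. The part of differentiation or growth state in the class II values was not tested.

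Markers of cells that express class II constitutively, and of other cells a line should not hold, were read on the same arrays. Of 4 general leukocyte markers, CD53 was detected on neither array, PTPRC differed by 0.45, and CORO1A and LAPTM5 by -1.08 and -1.74, with summed signals of 381 and 231. Among B cell markers, MS4A1, CD79B and PAX5 were detected on neither array, and CD79A read 1779 and 2022, a difference of 0.22. Of the 3 T cell markers, CD3E and CD2 were detected on neither array and CD3D was lower at -1.10, with summed signals of 67.2 and 30.9.

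Among macrophage and dendritic cell markers, 8 of 9 had a probe under the name used, and 5 were detected on both arrays. CD163, CD1A and CD207 were detected on neither. CD14, ITGAX and FCER1G differed by -1.60, -1.04 and -0.67, TYROBP by 0.39 and CSF1R, the receptor of macrophage colony-stimulating factor, by 1.86, with summed signals of 1779 and 4092, most of them CSF1R. Of 3 costimulatory genes, CD86 read 875 and 3252, a difference of 1.93, and CD80 and CD40 were detected on neither array, with summed signals of 890 and 3272. Of 4 fibroblast markers, COL1A1 differed by 3.99, LUM was detected with the DLEU1 vector only, and COL1A2 and DCN were detected on neither array, with summed signals of 350.2 and 5272.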

How the data were processed

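Total RNA (100 ng) was labelled and read by the authors on 1-colour arrays, with 1 array per group. Feature Extraction 10.7.3.1 (Agilent) produced the deposited intensity. Per the file headers it removed a background surface fitted over the array, and spots at background got a surrogate value. The authors then used GeneSpring. The deposited series values were the same intensity, rounded (differing by at most 0.497%). Positions in the files are on hg19, and no hg19 annotation was used to assign exons.

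Here the deposited processed intensity was put on the log2 scale, control spots and 84 and 103 outlier spots were left out, repeated spots were averaged per probe, and each array's 75th percentile (7.92 for the control vector, 7.88 for the DLEU1 vector) was subtracted. No spot was saturated (0 on each array). Software errors of both spots were combined for the error of a difference, which, like the spot SD (0.0800 over 282 replicated probes), leaves out the variation between cultures. Each class II probe had 1 spot. The bound of a probe detected on 1 array was taken against its own signal on the dim array or the faintest detected signal there, whichever was higher.

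Every member gene was named with every probe. Of each pathway list, the genes at least 2-fold different or detected on 1 array and the highest and lowest were named, with a few set members, and the detected markers. RFX5, RFXAP, RFXANK, HLA-DOB, HLA-DRB3, HLA-DRB4 and HLA-DRB5 were added after their values were seen. Members and lists were chosen with earlier results of these data known. Groups came from the labels. All names matched current symbols except MARCH1, MARCH8 and LOR, which are older ones, and CD68 was not analysed here. A few genes of the lists are counted but not reported singly here. Other settings were 6 scalings, 2 background corrections, the series values, local centring, other thresholds and filters. Scripts were tested on simulated data. Python 3.11.15, R 4.3.3 and limma 3.58.1 (normexp) were used.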

Additional observations from a re-analysis of the deposited data

How the results depend on the processing

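No paired analysis was possible because each group had 1 array. The class II median of 0.41 was 0.29 when scaled on the median, 0.52 on the 75th percentile of detected probes, -0.056 on the spike-in probes, 0.27 with normexp and 0.81 with positive and significant signal as the filter. Spike-in scaling moved the median of all genes to -0.53, and median scaling to -0.18. The 3 class II probes at least 2-fold higher became 0 with spike-in scaling, 1 with normexp, 6 at 1.5-fold, 0 at 3-fold, and 7 with either the positive and significant filter or none. With a signal of at least 100 required, 5 genes were detected with the DLEU1 vector, and with no filter all 10 counted as detected with the control vector by construction. The DLEU1 probe read 2.62 (median), 2.85 (75th percentile over detected probes), 2.92 (quantile), 2.97 (loess) and 2.28 (spike-in). In the interferon-γ route, genes at least 2-fold higher became 0 with median, no or spike-in scaling and with normexp, and genes lower became 1 with median or spike-in scaling. With spike-in scaling, endosomal genes higher became 0 and lower 2, and CIITA regulators lower became 2. Scaled on the 75th percentile of detected probes, CIITA regulators higher became 2. Of 349 values of single probes and list medians under the other settings, 207 stayed within 1 spot SD of the main value and 142 did not. The 207 include values that could not move. A detection filter leaves the difference of a single probe as it is, and a fold threshold leaves a bound as it is. The share of 207 is therefore no measure of stability. The motif counts over class II promoters were the same in the bases before the start alone. The cause of these shifts was not tested.

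No class II probe lay in a strip of the DLEU1 vector array (columns 36 to 43; 0 spots) in which 22.4% of the spots detected in control cells were at least 2-fold lower before scaling, against 13.4% elsewhere. CIITA, HLA-DRA and HLA-DPB1 were dim, and differences there are the least precise. Fits leaving out a replicate were not run, since none would remain.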

Other observations

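Class II names outside the lists were read after their values were seen. HLA-DPB2, a pseudogene beside HLA-DPB1, had 2 probes detected on both arrays. A_32_P505730 read 16.4 in control cells and 37.3 in DLEU1 cells, a log2 difference of 1.22, and A_24_P288836 read 24.2 and 29.8, a difference of 0.34. The noncoding RNA lnc-HLA-DMA-1 read 145 and 96.9, a difference of -0.55, opposite in sign to HLA-DMA. HLA-DRB6, lnc-HLA-DQA1-5 and lnc-HLA-DRA-1 were detected on neither array.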
